A study of Mus musculus with 6 samples.

Results

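The peroxiredoxins, glutathione peroxidases and superoxide dismutases are small enzymes that remove superoxide and peroxides from cells. The members described here were Prdx1 to Prdx6, Gpx1, Gpx4, Sod1 and Sod2, taken from the deposited expression table by gene name, which gave 10 of its 55487 genes. They were measured by RNA sequencing in LSKs, the bone marrow cells that lack lineage markers and carry Sca-1 and c-Kit, among which are the hematopoietic stem cells and early progenitors. All mice had been irradiated. Per the study's methods this was 5.0 Gy to the whole body, and RNA was taken at day 13 from male mice aged 8 to 10 weeks. One group was Tespa1+/+, labelled as wild-type littermates, and the other was Tespa1-/-, a germline knockout (B6.129S-Tespa1tm1Smoc, backcrossed to C57BL/6) in which the deletion is not limited to blood cells. There were 3 libraries per group and no unirradiated library was analysed here. Whether a library came from 1 mouse or from pooled mice was not stated, so p-values measure only the spread between these libraries.

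Superoxide dismutases turn superoxide into hydrogen peroxide, Sod1 with copper and zinc in the cytosol and Sod2 with manganese in the mitochondrial matrix. Peroxiredoxins, which thioredoxin mostly recharges, and glutathione peroxidases, which use glutathione, then reduce hydrogen peroxide and organic peroxides to water and alcohols. Both recharging systems draw on NADPH. Ionizing radiation produces reactive oxygen species, and their level is known to affect the quiescence and self-renewal of hematopoietic stem cells.

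Gpx1 and Gpx4 are selenoproteins: a UGA codon inside the reading frame is read as selenocysteine, the residue that reacts with peroxide. The windows around that codon are shown because they define both genes and because 1 of them has a near-identical copy elsewhere in the genome. They were read 5′ to 3′ from the GRCm38 genome with the GENCODE M21 annotation, with the in-frame TGA in capitals. The Gpx1 window is exonic and coding, at chr9:108339424-108339480 on the plus strand, and its TGA is codon 47 of 201. The Gpx4 window lies in coding exon sequence at chr10:80054710-80054766 on the plus strand, and its TGA is codon 129 of 253 in the longest coding transcript.
Gpx1: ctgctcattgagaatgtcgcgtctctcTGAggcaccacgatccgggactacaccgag
Gpx4: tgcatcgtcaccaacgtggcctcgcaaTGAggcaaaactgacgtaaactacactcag
Gpx4-ps2: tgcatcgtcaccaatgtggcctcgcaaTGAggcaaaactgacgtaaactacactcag
The last line is the same window in the processed pseudogene Gpx4-ps2, which differs from Gpx4 at 1 base of the window.

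Prdx1 also has such copies, and its first 60 coding bases, at chr4:116687418-116687477 on the plus strand, are shown with those of the pseudogene Gm21399, with the differing base in capitals. The windows differ at 1 base.
Prdx1: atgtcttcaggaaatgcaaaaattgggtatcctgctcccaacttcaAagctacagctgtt
Gm21399: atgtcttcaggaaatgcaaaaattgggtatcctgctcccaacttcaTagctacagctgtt

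The libraries held between 12856630 and 30576981 counts, and the members had between 289 and 18638 counts per library. Tespa1 itself was at 32.7 to 36.0 CPM in Tespa1+/+ and at 14.2 to 15.3 CPM in Tespa1-/- LSKs (log2 fold change -1.23, SE 0.07, edgeR adjusted p 7.0e-06). Reads of the gene were thus still counted in every Tespa1-/- library, and the deleted part was not examined here. CPM are read counts brought to the same library size, here with TMM factors. All 15332 genes that passed a filter on low counts were tested, and the 10 members were among them. At an adjusted p under 0.05, Tespa1-/- LSKs had 31.5% of these genes higher and 31.8% lower, so a call by itself was common.

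In Tespa1-/- LSKs 9 members rose, and Prdx4 fell. For each of the 10 genes all 3 Tespa1-/- libraries lay on 1 side of all 3 Tespa1+/+ libraries, against a background of 34.5% of genes that lay apart in the higher direction and 34.6% in the lower direction. At an adjusted p under 0.05, 9 members were called higher and 1 was called lower, against the 31.5% and 31.8% of all genes. When a fold over 1.5 was also required, 3 members (Gpx1, Prdx5 and Gpx4) were higher and 0 were lower, against 14.0% and 19.2% of all genes. The cutoff of the study, which leaves p unadjusted, also gave 3 and 0 members, against 14.4% and 19.9% of all genes. Prdx4 passed the p-value but not the fold. The median log2 fold change of the members was 0.52 and that of all genes was 0.

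**Figure D1:**
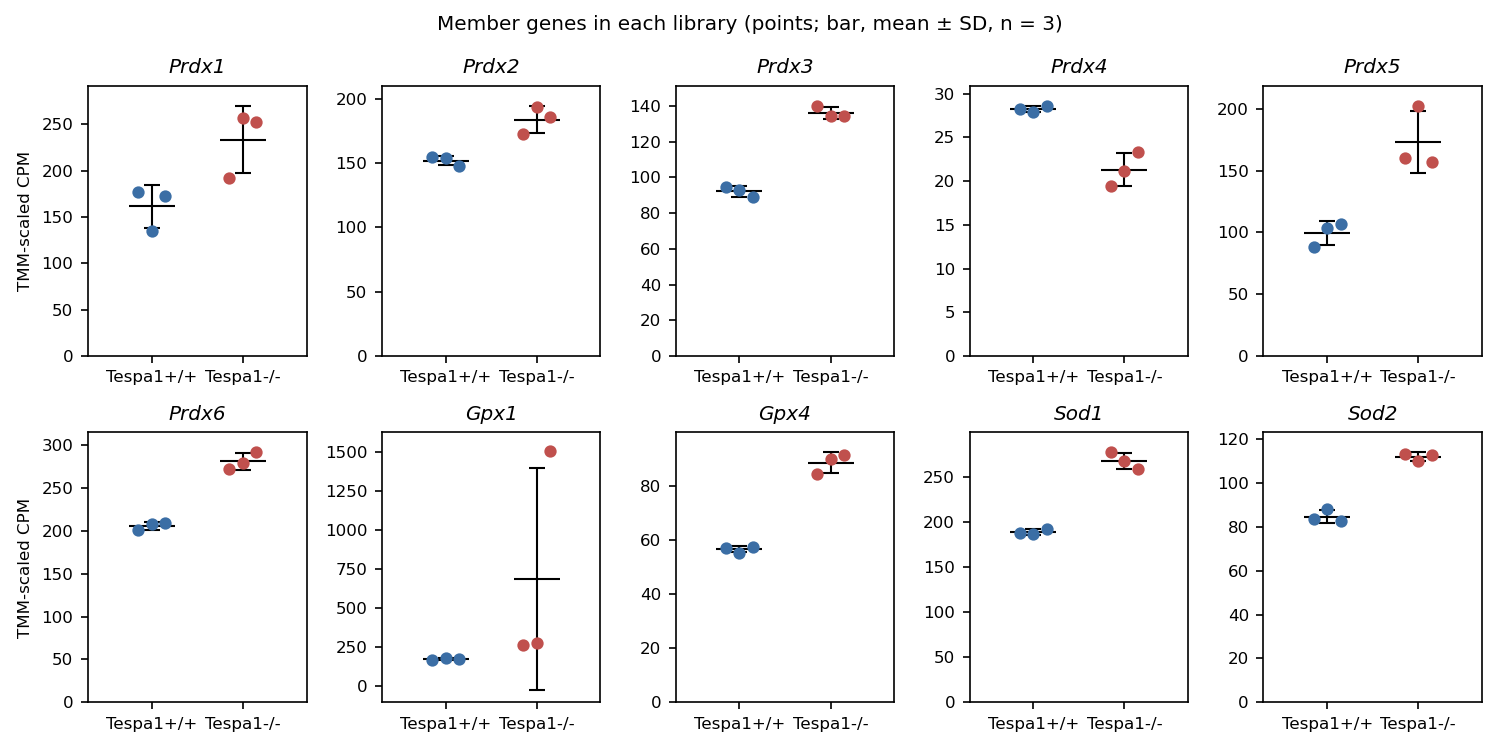
TMM-scaled CPM of the 10 member genes in each library, 1 panel per gene with its own linear axis. Points are libraries and the bar is the mean ± SD (n = 3); the groups do not overlap in any panel, Prdx4 alone is lower in Tespa1-/-, and 1 Tespa1-/- library stands at 1503 CPM for Gpx1.

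The peroxiredoxins of the cytosol were considered first. Prdx1 (chromosome 4, 116685544 to 116700822) was at 177.2, 134.9 and 172.7 CPM in Tespa1+/+ and at 191.7, 256.7 and 252.3 CPM in Tespa1-/- LSKs. Replicate 2 was low among the Tespa1+/+ libraries and replicate 1 among the Tespa1-/- libraries, and the groups came close without overlapping. The log2 fold change was 0.53 (SE 0.14, edgeR adjusted p 0.0127), the largest error among the peroxiredoxins. Prdx2 (chromosome 8, 84969587 to 84974834), abundant in red cells, was at 154.2, 153.6 and 147.5 CPM in Tespa1+/+ and at 172.2, 193.1 and 185.5 CPM in Tespa1-/- LSKs. All 3 Tespa1-/- libraries were above the Tespa1+/+ libraries, and at 0.27 (SE 0.05, edgeR adjusted p 0.00189) this was the smallest of the 9 increases on the log2 scale. Exons of Prdx2 overlap those of Rnaseh2a and Junb on the opposite strand, over 5.8% and 5.7% of its exon bases, and whether counting used strand was not stated. Junb fell (log2 fold change -0.48, SE 0.05, edgeR adjusted p 0.000123) and Rnaseh2a rose (0.61, SE 0.05, edgeR adjusted p 5.51e-05).

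Prdx6 (chromosome 1, 161240112 to 161251219) codes for a peroxiredoxin that uses glutathione and also has phospholipase activity. It was at 200.6, 208.1 and 208.4 CPM in Tespa1+/+ and at 271.8, 279.4 and 291.1 CPM in Tespa1-/- LSKs. The libraries of each group lay close together and the groups were well apart. Its increase was 0.45 on the log2 scale (SE 0.04, edgeR adjusted p 3.65e-05).

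Prdx3 (chromosome 19, 60864051 to 60874556), the peroxiredoxin of the mitochondrial matrix, was at 94.7, 93.1 and 88.8 CPM in Tespa1+/+ and at 140.0, 134.3 and 134.4 CPM in Tespa1-/- LSKs. The gap between the groups was several times the spread within either, and the log2 fold change was 0.56 (SE 0.04, edgeR adjusted p 2.09e-05). Prdx5 (chromosome 19, 6906697 to 6910106), found in mitochondria, peroxisomes and the cytosol, was at 88.5, 103.2 and 106.8 CPM in Tespa1+/+ and at 160.3, 202.4 and 157.1 CPM in Tespa1-/- LSKs. Tespa1-/- replicate 2 was the highest, and the other libraries of that group were still above every Tespa1+/+ library. The log2 fold change was 0.80 (SE 0.11, edgeR adjusted p 0.000644), the largest among the peroxiredoxins. Trmt112 on the opposite strand covers 19.1% of the exon bases of Prdx5, with counts of 168 to 334 per library against 1584 to 3258 for Prdx5.

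Prdx4 (chromosome X, 155323918 to 155340754) codes for the peroxiredoxin of the endoplasmic reticulum, where it takes part in oxidative protein folding. It was at 28.3, 27.96 and 28.6 CPM in Tespa1+/+ and at 19.5, 21.2 and 23.3 CPM in Tespa1-/- LSKs. The 3 Tespa1+/+ values were nearly equal, and the highest Tespa1-/- value stayed below them. Prdx4 fell by 0.41 on the log2 scale (SE 0.08, edgeR adjusted p 0.00261), and it was the least abundant member in CPM in both groups.

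Of the glutathione peroxidases, Gpx1 (chromosome 9, 108338903 to 108340343) codes for the main cytosolic enzyme against hydrogen peroxide. It was at 168.6, 178.5 and 170.9 CPM in Tespa1+/+ and at 265.3, 277.9 and 1503 CPM in Tespa1-/- LSKs. The first pair of Tespa1-/- libraries agreed closely, whereas replicate 3 stood at 5.53 times their mean of 272 CPM, with 18638 counts against 4519 and 4034. With all 6 libraries the log2 fold change was 1.98 (SE 0.67, edgeR adjusted p 0.0345). Without Tespa1-/- replicate 3 it was 0.66 (SE 0.04, edgeR adjusted p 6.49e-05), so the direction and the call did not need that library, while the size of the change rested on it. Without a Tespa1+/+ library in turn it was 1.97 to 2.02 and the adjusted p was 0.0846 to 0.0876. DESeq2 gave 1.97 with an adjusted p of 0.0512. What set replicate 3 apart for this gene was not tested.

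Gpx4 (chromosome 10, 80047166 to 80056439) codes for the enzyme that reduces lipid hydroperoxides in membranes and protects cells from ferroptosis. It was at 57.2, 55.5 and 57.5 CPM in Tespa1+/+ and at 84.5, 90.3 and 91.6 CPM in Tespa1-/- LSKs. Spread within each group was small, and replicate 3 was not set apart from the other Tespa1-/- libraries. The log2 fold change was 0.65 (SE 0.05, edgeR adjusted p 2.05e-05).

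The ratio of Gpx1 to Gpx4 counts within a library, which does not depend on library scaling, was 2.95, 3.22 and 2.97 in the Tespa1+/+ libraries and 3.14, 3.08 and 16.4 in Tespa1-/- LSKs. Outside replicate 3 the groups overlapped. The mean log2 ratio differed by 0.83 (exact two-sided permutation test, p = 0.3, with 0.1 the smallest p that 3 against 3 allows) and by 0.03 without replicate 3.

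Sod1 (chromosome 16, 90220754 to 90226329) was at 188.2, 186.1 and 192.6 CPM in Tespa1+/+ and at 276.9, 267.2 and 258.2 CPM in Tespa1-/- LSKs. Sod2 (chromosome 17, 13006846 to 13040063) was at 83.4, 87.9 and 82.4 CPM in Tespa1+/+ and at 113.1, 109.7 and 112.8 CPM in Tespa1-/- LSKs. For both dismutases the libraries of each group were close together and the groups were clearly apart. The log2 fold change was 0.50 for Sod1 (SE 0.04, edgeR adjusted p 2.06e-05) and 0.40 for Sod2 (SE 0.04, edgeR adjusted p 0.000104).

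The mitochondrial and cytosolic enzymes were then set against each other within libraries. The Sod2 to Sod1 count ratio was 0.443, 0.472 and 0.428 in the Tespa1+/+ libraries and 0.409, 0.411 and 0.437 in Tespa1-/- LSKs, so the groups overlapped. The mean log2 ratio differed by -0.10 (exact two-sided permutation test, p = 0.2), and after a correction for gene length the sign turned, to 0.33. The Prdx3 to Prdx1 ratio was 0.534, 0.690 and 0.514 in the Tespa1+/+ libraries and 0.730, 0.523 and 0.532 in Tespa1-/- LSKs. Here the mean log2 ratio differed by 0.03 (exact two-sided permutation test, p = 0.7), with 1 high library in either group. With 3 libraries against 3 the smallest p is 0.1, so neither test could pass 0.05.

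Together the 10 members held 0.127% to 0.13% of all counts in Tespa1+/+ libraries and 0.163%, 0.177% and 0.29% in Tespa1-/- libraries. Without Gpx1 these shares were 0.108% to 0.112% and 0.138% to 0.15%. Per kilobase of exon (CPM divided by the summed length of all annotated exons), Gpx1 had the highest level in Tespa1+/+ LSKs at 120 ± 3.6 (SD, n = 3), followed by Prdx3 at 62.4 ± 2.05. Prdx1, Prdx2, Sod1, Prdx5 and Prdx6 followed between 53.1 and 42.8, and the library ranges of neighbours in that order overlapped. Gpx4 at 32.9 ± 0.615, Prdx4 at 13.4 ± 0.151 and Sod2 at 8.45 ± 0.293 came last, and none of these 3 overlapped with its neighbours. In Tespa1-/- LSKs Prdx5 came next after Prdx3 at 81.0 ± 11.8, and Prdx4 at 10.1 ± 0.908 came after Sod2 at 11.2 ± 0.188, with overlapping libraries. The summed exon length counts rarely used exons and retained introns as well, so this order is a rough one. In the deposited FPKM values, which rest on another length, Prdx3 (64.5) came before Gpx1 (52.3) in Tespa1+/+ LSKs.

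Fold change fell with gene length across the whole table, and the members were therefore read against genes of their own length. In the shortest length decile of all genes tested the median log2 fold change was 0.54, and in the longest it was -0.56. Sod2, with 10008 exon bases in the longest decile, rose by 0.40 against that median of -0.56, and Prdx6, with 4804 bases in decile 7, rose by 0.45 against a median of -0.12. The bases of Sod2 join 8 annotated transcripts, of which 2 are coding, so its decile and the correction below rest on a rough length. Sod1 was in decile 6 with a median of -0.01, and Prdx1 and Prdx2 were in decile 5 with a median of 0.07. Among the shorter genes, Gpx1 and Prdx3 were in decile 2 (median 0.41), and Gpx4, Prdx5 and Prdx4 were in decile 3 (median 0.29), where Prdx4 alone went down.

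**Figure D2:**
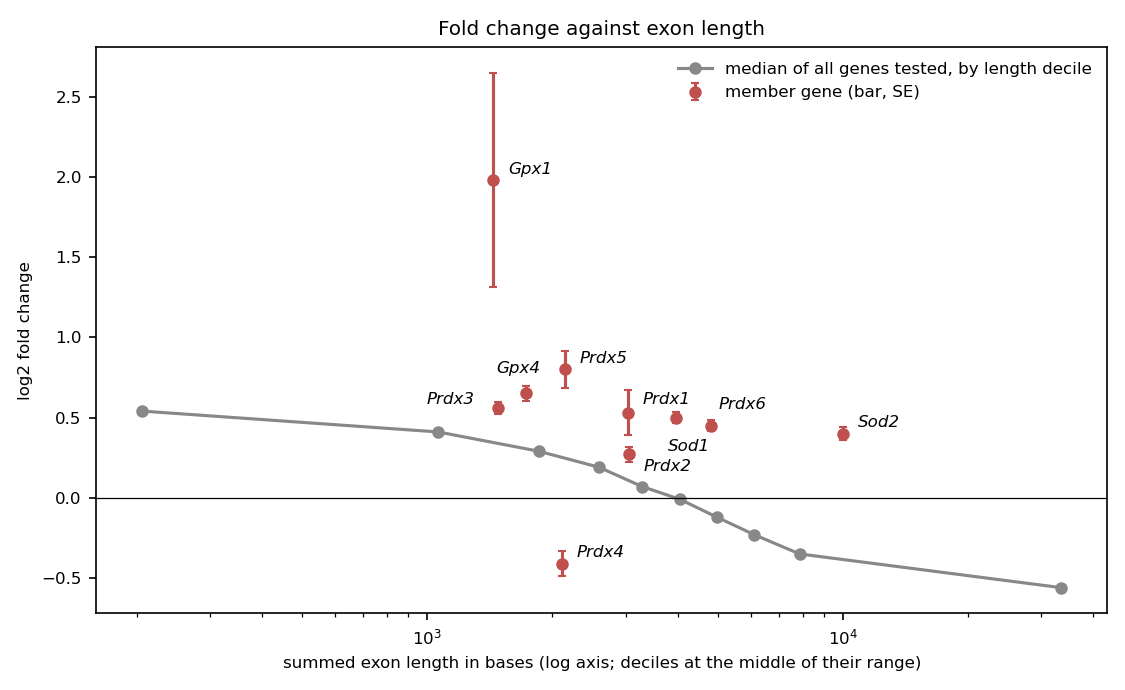
Log2 fold change (Tespa1-/- over Tespa1+/+) against summed exon length in bases on a log axis, with the median of all genes tested in each length decile in grey and the 10 members in red (bar, SE). The grey line runs from 0.54 to -0.56, and every member except Prdx4 lies above it, with Sod2 at 0.40 above a median of -0.56.

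When the length trend was fitted and removed, Sod2 was at 0.95 (SE 0.04, edgeR adjusted p 4.58e-06), Prdx6 at 0.64 and Sod1 at 0.62, all larger than before. Prdx3 was at 0.36, Gpx4 at 0.48 and Prdx5 at 0.69, all smaller. Prdx1 and Prdx2 were at 0.53 and 0.27 as before, and Prdx4 was at -0.52 and still lower. Gpx1 was at 1.78 with an edgeR adjusted p of 0.0535, so 8 members were called higher and 1 was called lower. This correction raised the median of all genes by 0.11 and the share of higher genes among all calls from 49.8% to 62.0%. The corrected values of all genes are thus not centred on 0, and the size of this shift in a single gene was not determined. Scaling by total counts alone moved the median of all genes by -0.10 and left the direction and call of all 10 members as they were.

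**Figure D3:**
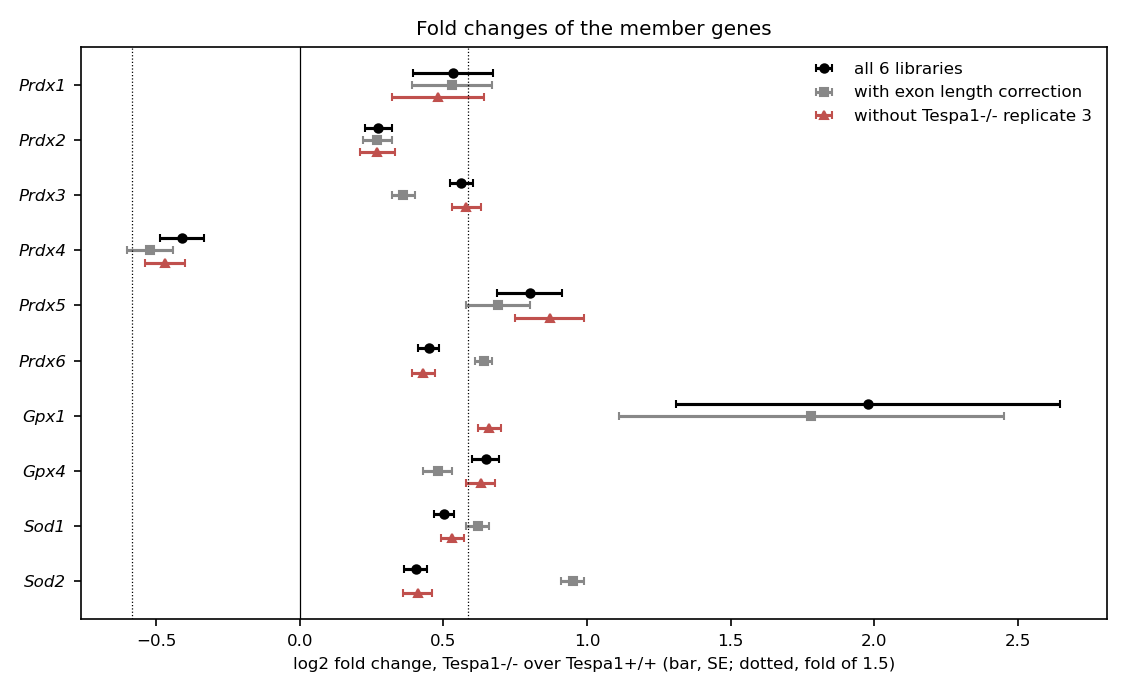
Log2 fold change of each member (Tespa1-/- over Tespa1+/+) with its SE, from all 6 libraries in black, with the exon length correction in grey and without Tespa1-/- replicate 3 in red; dotted lines mark a fold of 1.5. Gpx1 moves from 1.98 to 0.66 without that library, Sod2 from 0.40 to 0.95 with the correction, and no member changes side of 0.

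Near-identical copies can take or lend reads, and they were examined for every member. Pseudogene rows with at least 95% identity over at least 300 bases on the same strand were found for Gpx4, Prdx1, Prdx2 and Sod1. Gpx4-ps2 (chromosome 10, 45875291 to 45876086) matched Gpx4 over 762 bases with 2 mismatches. It held 2196, 3885 and 1793 counts in Tespa1+/+ and 3727, 3228 and 2625 in Tespa1-/- libraries, more than Gpx4 itself in every library (852 to 1753). How many of these reads arose from Gpx4 cannot be told from the counts, so the level of Gpx4 is uncertain. The row of Gpx4-ps2 rose by 0.84 (SE 0.03, edgeR adjusted p 1.91e-06), and Gpx4 with its copies added rose by 0.78 (SE 0.03, edgeR adjusted p 1.49e-06) against 0.65 alone.

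The other copies were smaller. Gm8566, at 97.8% identity to Sod1, held 393 to 889 counts and rose by 0.87 (SE 0.08, edgeR adjusted p 7.04e-05). Gm21399 and Gm7204, at 98.3% and 97.5% identity to Prdx1, rose by 0.59 (SE 0.14, edgeR adjusted p 0.00831) and 0.62 (SE 0.12, edgeR adjusted p 0.00312), while Prdx2-ps1 at 96.3% identity to Prdx2 was at 0.19 (SE 0.15, edgeR adjusted p 0.316). With copies added, Sod1 was at 0.55, Prdx1 at 0.54 and Prdx2 at 0.27, and their direction and call were the same as without the copies.

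**Figure D4:**
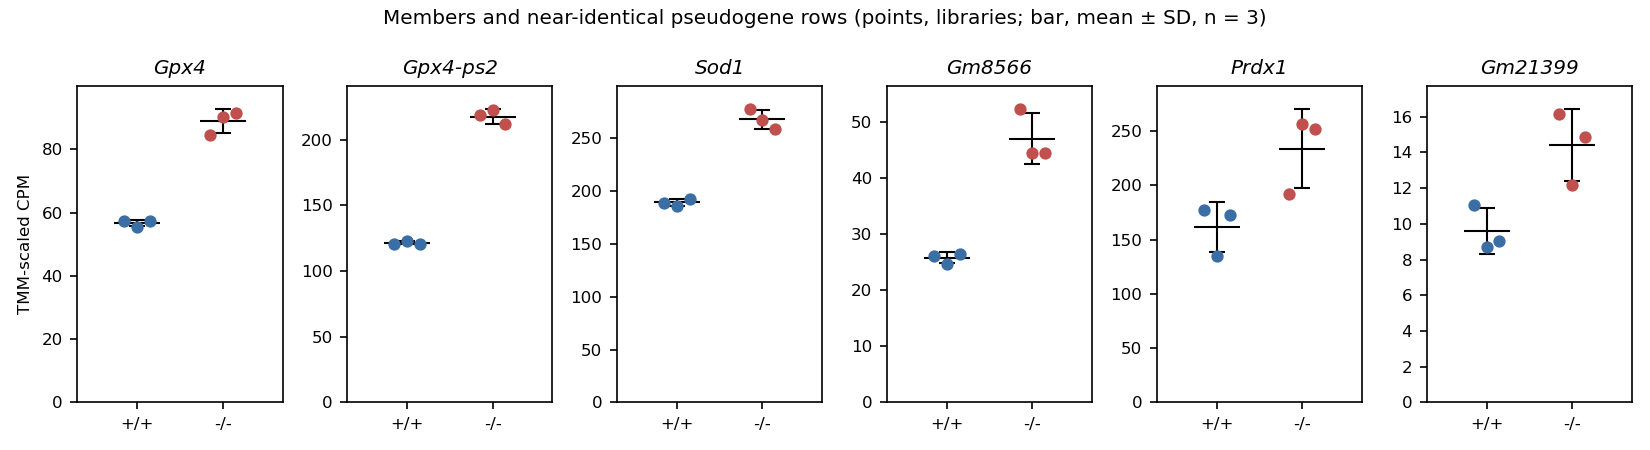
TMM-scaled CPM of Gpx4, Sod1 and Prdx1, each beside the pseudogene row closest to it in sequence (Gpx4-ps2, Gm8566 and Gm21399), with points for libraries and bars for mean ± SD (n = 3) on separate linear axes. All 6 rows are higher in Tespa1-/- LSKs without overlap, and Gpx4-ps2 lies above 120 CPM where Gpx4 lies between 55.5 and 91.6 CPM.

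The rest of the family was scarcely expressed. Of 25 rows of the table named for these enzymes, 15 were not members, and 8 of these were protein coding. Gpx2, Gpx5, Gpx6 and Gpx8 had 0 counts in all 6 libraries, which allows up to 3 counts in each, and Sod3 and Prdx6b had at most 2. Only Gpx3 and Gpx7 were tested. Gpx3, the secreted plasma enzyme, was at 5.18, 3.42 and 5.40 CPM in Tespa1+/+ and at 9.39, 10.7 and 7.18 CPM in Tespa1-/- LSKs, a rise of 0.99 on the log2 scale (SE 0.22, edgeR adjusted p 0.00554) without overlap. Gpx7 was below 1 CPM in every library (log2 fold change -0.11, SE 0.46, edgeR adjusted p 0.854).

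Catalase and the systems that recharge the members did not move as 1 block. The counts of each list are to be read against the 31.5% higher and 31.8% lower of all genes. Cat, the peroxisomal enzyme that breaks down hydrogen peroxide without a thiol donor, was at 95.6, 97.5 and 90.1 CPM in Tespa1+/+ and at 71.2, 73.6 and 71.1 CPM in Tespa1-/- LSKs. Cat thus went opposite to Gpx1, Prdx3 and both dismutases, falling by 0.39 (SE 0.04, edgeR adjusted p 0.000194). Of 13 genes of the thioredoxin system, 6 were higher, 4 were lower and 3 were not called, with a median of 0.18. Txn1, the cytosolic thioredoxin that reduces Prdx1 and Prdx2, rose by 0.67 (SE 0.04, edgeR adjusted p 8.51e-06), and mitochondrial Txn2, the partner of Prdx3, rose by 0.29 (SE 0.08, edgeR adjusted p 0.0161). Txnrd1, which reduces Txn1, was lower (-0.15, SE 0.03, edgeR adjusted p 0.00666), as were Srxn1, which repairs overoxidized peroxiredoxins (-0.39, SE 0.12, edgeR adjusted p 0.0274), and Txnip, which binds thioredoxin (-0.99, SE 0.18, edgeR adjusted p 0.00244). Txnrd1 has 7086 exon bases, in length decile 9 with a median of -0.35, and the length correction gave the list 8 higher and 3 lower. Mitochondrial Txnrd2 was at 0.18 (SE 0.08, edgeR adjusted p 0.0883).

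Of 12 genes of glutathione synthesis, breakdown and recycling, 6 were higher, 1 was lower and 5 were not called, with a median of 0.31. The higher genes included Chac1 (1.41, SE 0.21, edgeR adjusted p 0.000898) and Ggt1 (0.84, SE 0.30, edgeR adjusted p 0.0432). Both were at low levels and code for enzymes that break glutathione down. Gsr, which regenerates reduced glutathione for Gpx1 and Gpx4, rose by 0.63 (SE 0.04, edgeR adjusted p 9.03e-06), and Glrx5, a mitochondrial glutaredoxin, by 0.65 (SE 0.07, edgeR adjusted p 0.00021). Slc7a11, the cystine importer, rose by 1.60 (SE 0.20, edgeR adjusted p 0.000316) from a low level of 1.55 to 2.42 CPM to 5.08 to 6.27 CPM. Gclc, the catalytic subunit of the first step of glutathione synthesis, fell by 0.34 (SE 0.06, edgeR adjusted p 0.00219). Its partner Gclm (0.16), the second enzyme Gss (0.24) and Glrx (0.05) did not pass the test.

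Of 11 genes that supply NADPH, 9 were counted, and 4 of these were higher, 1 was lower and 4 were not called, with a median of 0.06. Me1 did not pass the filter, and Nnt has a pair of overlapping rows in the table, neither of them called, and was left out of the count. Pgd of the pentose phosphate pathway rose by 0.69 (SE 0.03, edgeR adjusted p 1.63e-06), whereas G6pdx at 0.22, Idh1 at 0.19 and mitochondrial Idh2 at 0.29 rose less.

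For the selenoenzymes Gpx1 and Gpx4, 7 genes of selenoprotein synthesis were counted, of which 2 were higher, 2 were lower and 3 were not called (median 0.12), near the shares of all genes. Sephs2, which makes the selenium donor, rose by 0.60 (SE 0.04, edgeR adjusted p 1.4e-05), while Eefsec, the elongation factor for selenocysteine, fell by 0.24 (SE 0.06, edgeR adjusted p 0.00711). Secisbp2, which binds the selenocysteine element of the mRNA, was at 0.13 (SE 0.05, edgeR adjusted p 0.0502). Of 7 genes listed for copper and manganese supply, 5 were higher and 1 was lower (median 0.45). They were counted because Sod1 uses copper and Sod2 manganese. The median was the value of Slc25a39 (SE 0.05, edgeR adjusted p 0.000267), which is also known as a carrier of mitochondrial glutathione. Scaling by total counts gave 3 higher and 1 lower. Ccs, the copper chaperone of Sod1, rose by 0.54 (SE 0.13, edgeR adjusted p 0.00751), and Atox1, a copper carrier, rose by 1.01 (SE 0.07, edgeR adjusted p 1.42e-05). Of the importers that carry manganese, Slc39a14 fell by 0.65 (SE 0.08, edgeR adjusted p 0.000367) and Slc39a8 was at 0.12 (SE 0.06, edgeR adjusted p 0.137). Slc39a14 has 10550 exon bases, in length decile 10 with a median of -0.56. The length correction gave the copper and manganese list 6 higher and 0 lower.

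Of 9 genes of transcription control, 1 was higher, 5 were lower and 3 were not called, with a median of -0.50. Nfe2l2, which codes for NRF2, the activator of many antioxidant genes, rose by 0.21 (SE 0.04, edgeR adjusted p 0.00308), and its inhibitor Keap1 was at 0.20 (SE 0.10, edgeR adjusted p 0.128). Bach1, a repressor at the same sites, fell by 0.50 (SE 0.08, edgeR adjusted p 0.00141). Foxo3, a stem cell factor known to act on Sod2 and Cat, fell by 0.87 (SE 0.04, edgeR adjusted p 2.49e-06). It was at 136.4, 136.5 and 138.6 CPM in Tespa1+/+ and at 77.3, 74.3 and 73.2 CPM in Tespa1-/- LSKs. By exon length, Foxo3 was in decile 9 (median -0.35), Bach1 in decile 8 (-0.23) and Nfe2l2 in decile 6 (-0.01). Over all 60 genes of these lists, 25 were higher, 15 were lower and 20 were not called, with a median of 0.18 and against 31.5% higher and 31.8% lower of all genes. The length correction gave 37 higher and 10 lower, and scaling by total counts gave 18 and 17. Over all genes tested, 4832 higher and 4871 lower became 5571 and 3410 with the correction, and 3951 and 5684 with total counts. The balance of these lists thus depended on the scaling, as did that of the whole table. Transcription control went from 1 higher and 5 lower to 3 and 3 with the length correction, NADPH supply from 4 higher to 6, and the selenoprotein list from 2 and 2 to 4 and 1.

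**Figure D5:**
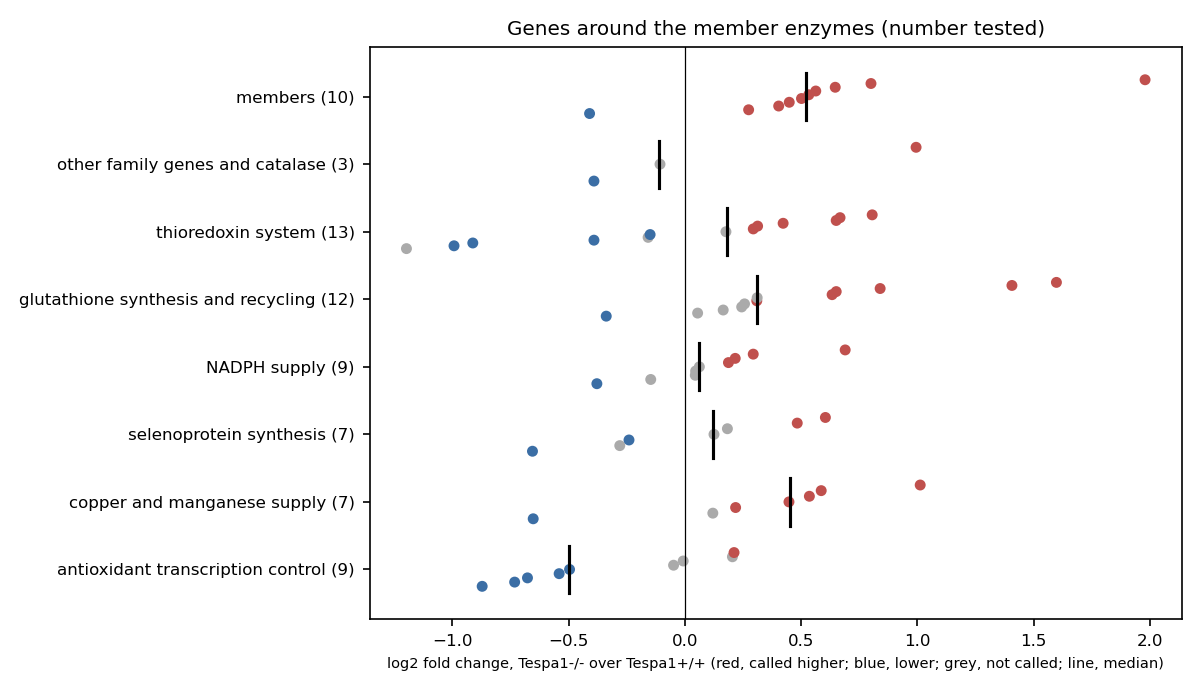
Log2 fold change (Tespa1-/- over Tespa1+/+) of each tested gene of the members and of 7 surrounding lists, with the number tested in brackets; red points were called higher, blue lower and grey not called, and the black line is the median. The members have a median of 0.52, the copper and manganese list 0.45, and the transcription control list -0.50.

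NRF2 binds the antioxidant response element, whose core letters TGACNNNGC were searched on both strands in RefSeq promoter windows of GRCm38.p6 (250 bases before to 50 bases after a start). Of the 9 members with an entry, Prdx1 and Sod1 held a match, and Prdx6 has no entry. Among all 32851 promoter windows 12.4% held one. Over the 12 windows of these members, of which Gpx4 has 4, this was 16.7%. Both matches lie on the minus strand, so that the plus strand printed here reads GCNNNGTCA. They are shown with 20 bases on either side and the matching letters in capitals, at chr4:116685446-116685494 for Prdx1, which is 133 bases upstream of the start, and at chr16:90220686-90220734 for Sod1, 56 bases upstream, both genes being on the plus strand.
Prdx1: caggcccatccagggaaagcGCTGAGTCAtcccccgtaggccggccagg
Sod1: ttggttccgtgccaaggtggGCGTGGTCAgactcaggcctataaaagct
Prdx1 and Sod1 rose by 0.53 and 0.50. Prdx2, Prdx3, Prdx5, Gpx1, Gpx4 and Sod2 rose without the letters in this window, and Prdx4, also without them, fell by 0.41. A match is a run of letters and not a measured binding site.

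The cells of the 2 groups also differed in their markers, and the marker lists did not all move in the direction of the members. Kit, a receptor used in the sort, was at 321.9 to 341.0 CPM in Tespa1+/+ and at 164.9 to 176.5 CPM in Tespa1-/- LSKs, and Ly6a (Sca-1) was at 43.4 to 63.8 and 38.2 to 44.2 CPM. The counts of all marker lists are to be read against the 31.5% higher and 31.8% lower of all genes, and they were made without the length correction. Of 10 LSK markers 9 were lower, and their summed level went from 1280 to 1310 CPM down to 732 to 751 CPM. All 6 promyelocyte markers were higher, of which Mpo, a defining marker, had the smallest rise (7260 to 7734 against 10470 to 10540 CPM, log2 fold change 0.48), with sums of 10900 to 11700 and 18000 to 18800 CPM. All 9 neutrophil markers tested were higher, with sums of 21.7 to 23.9 and 483 to 510 CPM. S100a8 was at 2.64 to 2.82 and 84.9 to 90.7 CPM. Ly6g was at 0 in every Tespa1+/+ library and at 4 to 8 counts in Tespa1-/- libraries. By exon length, Kit was in decile 9 (median -0.35), Ly6a in decile 2 (0.41), Mpo in decile 5 (0.07) and S100a8 in decile 1 (0.54).

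Red cells are rich in the products of Prdx2, Cat and Gpx1, and erythroid markers were mixed, with 3 higher and 5 lower of 8 and sums of 139 to 145 and 92.9 to 95.8 CPM; Hba-a1 lay at 3.31 to 4.96 and 17.2 to 20.8 CPM. Of 9 plasma cell and B cell markers 5 were higher and 4 were lower, with sums of 517 to 538 and 682 to 708 CPM. Jchain was at 32.3 to 55.7 and 87.7 to 93.0 CPM, and Cd79a at 5.19 to 6.21 and 2.58 to 3.63 CPM. Ms4a1, which did not pass the filter, had 2, 0 and 3 counts in Tespa1+/+ and 0 in all Tespa1-/- libraries. Among the remaining lists, 2 of 6 monocyte markers were higher and 1 was lower (520 to 562 and 690 to 763 CPM). Of 5 megakaryocyte markers 3 were lower (106 to 113 and 66.6 to 71.2 CPM). Both T cell markers tested were lower (3.31 to 3.58 and 1.53 to 1.69 CPM). Cd3e, which did not pass the filter, had 8, 7 and 4 counts in Tespa1+/+ and 0 in all Tespa1-/- libraries. The part of these shifts in the levels of the members was not tested. In bulk samples a different mix of cells and a different amount of RNA per cell cannot be told apart.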

How the data were processed

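The authors deposited 1 table that holds a raw count and an FPKM value for each of 55487 genes in 6 samples. Per the labels, poly-A RNA was made into stranded paired-end libraries, and the submitters' processing notes name CASAVA 1.8, HISAT2, StringTie, edgeR and GRCm38; counting options are not given in the sources used here. The deposited FPKM values equal counts divided by library total and a fixed length per gene, and served only in alternatives. That length was within 0.1% of the summed transcript lengths for 50.8% of 27297 genes.

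Positions and exon lengths came from GENCODE M21. The quasi-likelihood F-test of edgeR 4.0.16 (R 4.3.3) was run on the counts with genotype as the only term, after filterByExpr and TMM scaling, and p-values were adjusted over 15332 genes by the Benjamini-Hochberg method. Log2 fold changes are Tespa1-/- over Tespa1+/+. Within-library ratios were tested by exact permutation. The scripts were tested on simulated data.

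The members and gene lists were chosen with earlier results of these data known. Named genes were Tespa1, the members, all rows of the enzyme families, and genes picked from the pathway and marker lists for their role; the copies, overlapping genes and the other markers and genes with values were named after they were found. Alternatives were RLE factors, total counts, other filters, DESeq2 1.42.0, limma-trend (3.58.1) on log2(FPKM + 1) and log2(FPKM + 0.1), glmTreat against a fold of 1.5, a replicate block, omission of each library in turn, and an offset from a loess fit (span 0.5) of library deviation on gene length. Adding the counts of copies was chosen after seeing the data. Reads carried no molecular identifiers, so a limit from a count of 0 covers counting error only. A marker and a sequence are not reported here.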

Additional observations from a re-analysis of the deposited data

How the results depend on the processing

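None of the 10 members changed direction under any alternative. Apart from glmTreat, 8 members kept their call in all alternatives; Prdx1 lost it with limma-trend on log2(FPKM + 1) without a filter (0.42, adjusted p 0.0938), and Gpx1 lost it in 9 of 17, with adjusted p between 6.49e-05 and 0.201 over these 17. Tested against a fold of 1.5 with glmTreat, 0 members were higher and 0 were lower (3 had an unadjusted p under 0.05, Prdx5, Gpx1 and Gpx4, and the smallest adjusted p was 0.0688 for Prdx5; DESeq2 against no change called 8 higher and 1 lower), 1020 genes in all were higher and 1807 lower, and the pathway lists had 5 higher and 4 lower. The members higher with a fold over 1.5 were 3 in the report, 1 with limma-trend on FPKM at either pseudocount and without a filter, 5 with the correction on the length implied by the deposited values, and 2 to 4 when single libraries were left out. The Sod2 to Sod1 ratio turned from -0.10 to 0.33 under that correction, and the Prdx3 to Prdx1 ratio turned from 0.03 to -0.10; the latter ranged from -0.12 to 0.17 when single libraries were left out. Libraries of the same number did not deviate together (correlations of -0.017, -0.036 and 0.056 over 10143 genes). With the replicate number as a block, Gpx1 was at 1.44 (adjusted p 0.0809) and no other member lost its call. The cause of these changes was not tested. With 3 libraries per group the ratio tests cannot reach a p under 0.1, and Gpx4 cannot be separated from Gpx4-ps2.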

Other observations

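Among 4432 genes with a mean count of at least 1000, 5 genes had a library over 4-fold above both others of its group. In Tespa1-/- replicate 3 these were Gpx1, Amd1, Slc36a1 and Fam107b, and in Tespa1+/+ replicates 2 and 3 they were Amd1 and Ino80d. Over all 6 libraries 24 genes had a library over 2-fold above and 43 had one over 2-fold below both others, with 8 and 5 of these in Tespa1-/- replicate 3. The other 9 members had no such library. These genes were named after their values were seen.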
